A study of Mus musculus with 170 samples.

Results

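Ccl2, Ccl3, Ccl4, Ccl7, Ccl12, Ccl17, Ccl20 and Ccl22 are CC chemokine genes, and they were followed here through the lungs and hearts of mice given particulate matter from wildfire fuels. They were taken by symbol from a table of probe counts, with the probes of a symbol summed, and they are 8 of its 21450 symbols and 12 of its 30146 probe rows. Ccl2, Ccl3, Ccl17 and Ccl22 had 2 probes each and the other members 1 each. The mice were female CD-1 animals, an outbred stock, and each smoke group received by oropharyngeal aspiration 50 uL of saline that carried particulate matter at 2 mg/mL. The particulate came from 5 fuels (peat, red oak, eucalyptus, pine and pine needles), each burned with flames or smoldering, so that 10 smokes were compared, named PeatFlame, PeatSmolder, RedOakFlame and so on. Further groups received LPS, the bacterial endotoxin, at a dose not given in the sources used here, or saline alone. Lungs were taken at 4 h or at 24 h, with 6 animals in each smoke group and each saline group and 4 in each LPS group, which makes 24 lung groups. Hearts were measured at 24 h in 5 groups of 6: PeatFlame, PeatSmolder, RedOakFlame, RedOakSmolder and saline. By the titles, each heart carried the animal number of a lung of the same group at 24 h. The sources used here give no age for the mice, and since only the numbers in the titles mark the samples as different animals, p-values cover the spread between these libraries.

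CC chemokines are small secreted proteins that draw leukocytes to a tissue along a gradient and act through G protein-coupled receptors. Ccl2, Ccl7 and Ccl12 are ligands of Ccr2, the receptor that brings inflammatory monocytes out of the bone marrow and into tissue. Ccl3 is a ligand of Ccr1, and Ccl3 and Ccl4 are made quickly by activated macrophages and neutrophils. Ccl20 is the ligand of Ccr6, which type 17 lymphocytes and some dendritic cells carry, and epithelium is a known source. Ccl17 and Ccl22 are ligands of Ccr4 and are best known for drawing regulatory T cells and type 2 helper T cells rather than monocytes, so the 8 genes share a family more than a single target cell.

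In the RefSeq annotation of GRCm38.p6, Ccl2, Ccl7 and Ccl12 lie close together on chromosome 11, with Ccl11 among them, Ccl3 and Ccl4 are neighbours elsewhere on chromosome 11, Ccl22 and Ccl17 flank Cx3cl1 on chromosome 8, and Ccl20 lies alone on chromosome 1. Promoter windows of 250 bases before to 50 after the gene start were found in RefSeq for 5 of the 8 genes, Ccl12, Ccl3, Ccl20, Ccl17 and Ccl22. They were searched on both strands for the letters of an NF-kB site, GGGNNNNNCC, for a narrower form of it that the first also covers, GGGAAANNCC, and for the letters of an AP-1 site, TGANTCA. The wide form was in the windows of Ccl20 and Ccl22, 2 of 5, and in 50.8% of the 32851 windows of all genes, the narrow form was in 1 of 5, that of Ccl20, and in 1.87% of all, and the AP-1 letters were in 0 of 5 and in 7.81% of all. A match in this window describes its letters and is not a shown binding site. The windows of Ccl20 and Ccl22 are printed because they hold a match, and that of Ccl3 because it holds none although the gene rose after LPS like the other members. The capitals mark the matched letters, the sequences run 5′ to 3′ on the strand of the gene, and the narrow match of Ccl20 begins 81 bases before the start.
Ccl20, chr1:83116516-83116815, plus strand: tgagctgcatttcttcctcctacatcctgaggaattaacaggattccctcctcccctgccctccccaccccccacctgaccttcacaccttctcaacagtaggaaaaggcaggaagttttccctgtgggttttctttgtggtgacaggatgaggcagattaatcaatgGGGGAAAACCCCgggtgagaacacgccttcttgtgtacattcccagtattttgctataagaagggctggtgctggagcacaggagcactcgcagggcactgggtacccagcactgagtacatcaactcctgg
Ccl22, chr8:94745434-94745733, plus strand: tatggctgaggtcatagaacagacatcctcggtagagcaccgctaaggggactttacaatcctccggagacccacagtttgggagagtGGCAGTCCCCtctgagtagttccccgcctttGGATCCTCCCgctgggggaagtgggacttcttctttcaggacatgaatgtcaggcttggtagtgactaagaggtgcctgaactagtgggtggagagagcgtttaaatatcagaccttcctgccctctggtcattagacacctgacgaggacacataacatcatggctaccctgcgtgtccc
Ccl3, chr11:83649329-83649628, minus strand: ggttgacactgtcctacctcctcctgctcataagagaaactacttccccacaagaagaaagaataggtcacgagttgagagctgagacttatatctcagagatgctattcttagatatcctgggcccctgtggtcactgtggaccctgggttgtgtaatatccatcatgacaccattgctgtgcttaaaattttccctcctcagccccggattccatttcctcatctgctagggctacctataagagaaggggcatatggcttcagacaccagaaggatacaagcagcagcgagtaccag

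The 170 libraries held 4426180 to 8046021 counts each, and 3 counts corresponded to between 0.342 and 2.16 CPM. CPM are counts brought to a common library total after scaling by trimmed means (TMM), and they are comparable between libraries for 1 gene, not between genes. Of the lungs at 24 h, 6 libraries were gene-poor, with fewer than 13000 detected genes (9886 to 12545), all of them from smoke groups. The 4 h lungs were processed on plate 1, except 5 of the 6 PineNeedlesSmolder lungs, which were on plate 2. At 24 h each group had 1 lung on plate 1 and the rest on plate 2, except PineNeedlesSmolder, with all 6 on plate 1. Time and plate can therefore barely be told apart, and the lung fit carried a plate term. At both times most PineNeedlesSmolder lungs were on a different plate from most saline lungs, so comparisons that include this smoke cross plates. The summed CPM of 7 lung epithelium markers ranged from 15925 to 84149 in lung and from 6.202 to 137.8 in heart, and that of 7 heart muscle markers from 18702 to 34930 in heart and from 23 to 934 in lung, so each tissue carried its own markers. In these bulk samples, more cells of a type and more RNA per cell cannot be told apart.

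**Figure D1:**
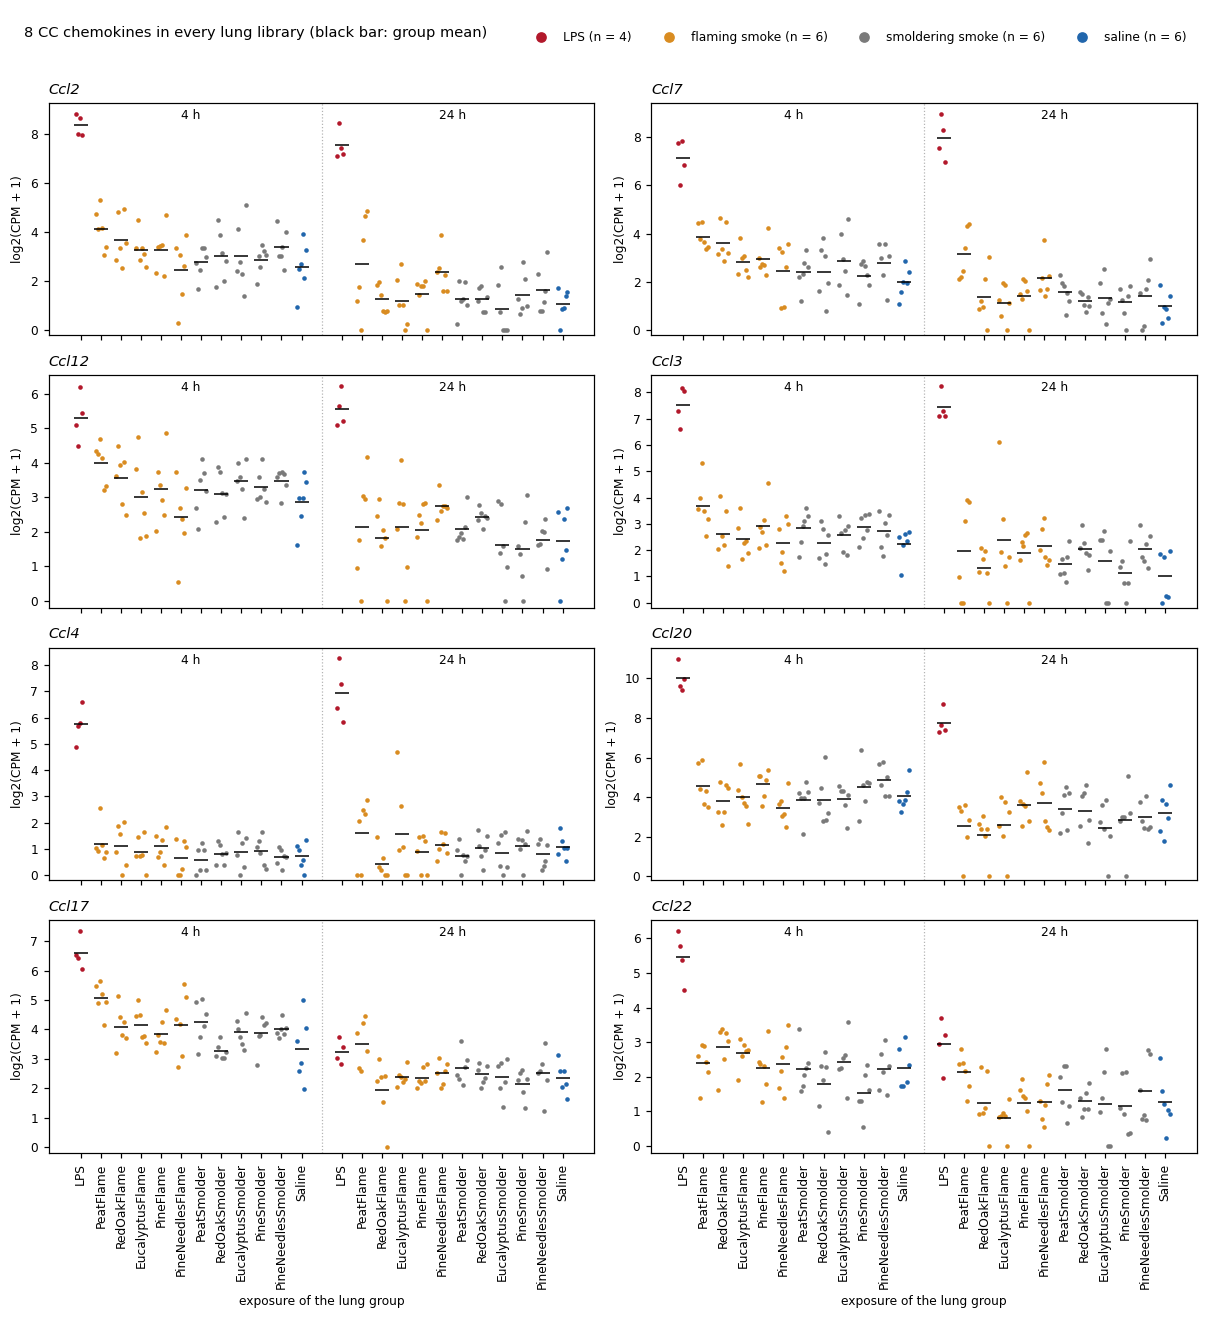
Level of each of the 8 chemokines in every lung library, as log2(CPM + 1) on the vertical axis, for the 12 groups at 4 h and the 12 at 24 h; points are libraries and black bars are group means. LPS lungs lie above every saline lung for all 8 genes at 4 h, and most smoke groups overlap the saline values. At 4 h 31 of 60 smoke lungs for Ccl7 and 32 of 60 for Ccl3 lie above every saline lung, and 7 to 15 of 60 for the other members. Below every saline lung lie 16 of 60 for Ccl22, 12 for Ccl20, 4 for Ccl7 and 0 or 1 for the others. For Ccl22 and Ccl20, 7 of 60 each lie above. The shares over all genes are not given here.

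LPS against saline asks how these genes stood in lungs given a strong inflammatory stimulus, with different animals in each group. All 8 were tested, and at 4 h 8 of 8 rose, where 5.48% of the 14458 genes tested were called higher and 8.98% were called in either direction (adjusted p under 0.05). At 24 h 7 of 8 rose, where 7.58% of all genes were called higher and 12.1% in either direction. In 8 of 8 at 4 h and in 6 of 8 at 24 h, every LPS lung lay above every saline lung, and the same was so for 6.18% of all tested genes at 4 h and 7.38% at 24 h. The median log2 change of the 8 was 5.6 at 4 h, with -0.04 over all genes, and 5.76 at 24 h, with -0.12 over all genes.

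The Ccr2 ligands were high in every LPS lung. Ccl2 stood at 461, 260, 406 and 250 CPM in the 4 LPS lungs at 4 h, against a lowest, median and highest of 0.956, 5.15 and 14.1 CPM in the 6 saline lungs, and the log2 fold change was 5.77 ± 0.79 (SE, adjusted p = 6.53e-09). At 24 h Ccl2 stood at 136.4, 355, 173 and 144 CPM after LPS, against 0, 1.26 and 2.36 CPM (lowest, median and highest) after saline, a log2 change of 7.24 ± 0.86 (adjusted p = 1.92e-11). The groups did not overlap at either time, and 1 saline lung at 24 h had no Ccl2 count. Ccl7 stood at 217, 63.7, 231 and 112.7 CPM after LPS at 4 h, against 1.15, 2.94 and 6.36 CPM after saline (log2 change 5.55 ± 0.71, adjusted p = 6.85e-10). The 24 h values were 187, 503, 314 and 125.5 CPM after LPS, against 0.25, 0.926 and 2.65 CPM after saline (7.91 ± 0.80, adjusted p = 1.04e-14), the largest log2 change among the 8 genes. Ccl12, a ligand of mouse Ccr2, had a smaller change. It stood at 32.9, 21.2, 72.8 and 42 CPM after LPS at 4 h, against 2.1, 6.84 and 12.3 CPM after saline (2.57 ± 0.64, adjusted p = 0.00297). At 24 h the LPS lungs had 32.9, 48.9, 73.8 and 36.3 CPM, against 0, 2.98 and 5.42 CPM in saline lungs (3.98 ± 0.68, adjusted p = 2.2e-06).

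Ccl3 and Ccl4, the macrophage inflammatory proteins, rose at both times. Ccl3 had 157, 96.4, 289 and 264 CPM after LPS at 4 h, against 1.09, 4.35 and 5.44 CPM after saline (log2 change 5.66 ± 0.80, adjusted p = 1.55e-08). By 24 h the LPS lungs had 135.6, 303, 155 and 137.6 CPM, against 0, 1.23 and 2.86 CPM (7.07 ± 0.86, adjusted p = 4.48e-11). No LPS lung came near a saline lung. Ccl4 had 28.8, 50.9, 55.2 and 95.4 CPM after LPS at 4 h, against 0, 0.706 and 1.55 CPM after saline (6.25 ± 0.88, adjusted p = 1.64e-08). Its 24 h values were 81.9, 305, 154 and 55.7 CPM, against 0.448, 1.05 and 2.5 CPM (6.98 ± 0.89, adjusted p = 2.86e-10). The saline lungs held 0 to 10 counts of Ccl4 at 4 h and 3 to 10 at 24 h, so these folds rest on a low denominator. The same holds at 24 h for Ccl2, Ccl7 and Ccl3, with 0 to 16, 1 to 18 and 0 to 19 counts in the saline lungs.

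Ccl20, the Ccr6 ligand, had its highest values of the series in the 4 h LPS lungs. It stood there at 2048, 788, 680 and 992 CPM, against 8.57, 13.3 and 40.9 CPM (lowest, median and highest) in saline lungs, a log2 change of 6.0 ± 0.78 (adjusted p = 1.14e-09). At 24 h the 4 LPS lungs had 153, 199, 416 and 164 CPM, against 2.46, 9.28 and 23.2 CPM after saline (4.53 ± 0.74, adjusted p = 7.63e-07). The LPS lungs were high at both times, and the 24 h LPS lungs were all below the 4 h LPS lungs. The Ccr4 ligands attract T cells. Ccl17 stood at 92.3, 85.3, 162 and 65.9 CPM after LPS at 4 h, against 2.91, 8.67 and 31.3 CPM after saline (3.07 ± 0.44, adjusted p = 2e-08). Its 24 h values were 7.07, 12.3, 6.01 and 9.5 CPM after LPS, against 2.11, 4.22 and 7.66 CPM after saline, and it did not pass the test (0.99 ± 0.45, adjusted p = 0.152). Those groups overlap, with 2 of the 4 LPS lungs inside the saline range. Ccl22 had 73.6, 53.8, 40.9 and 22 CPM after LPS at 4 h, against 2.34, 3.31 and 7.79 CPM after saline (3.51 ± 0.62, adjusted p = 9.01e-06). At 24 h it had 6.72, 12, 2.89 and 8.21 CPM, against 0.174, 1.18 and 4.86 CPM (2.11 ± 0.64, adjusted p = 0.0152), with 1 LPS lung inside the saline range. That 24 h call was lost without LPS replicate 2 (adjusted p = 0.109), without saline replicate 4 (0.0506) and when each time was fitted alone (0.0717). The saline lungs held 33, 8, 8, 1, 7 and 6 counts of Ccl22 at 24 h, so this fold also rests on a low denominator.

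**Figure D2:**
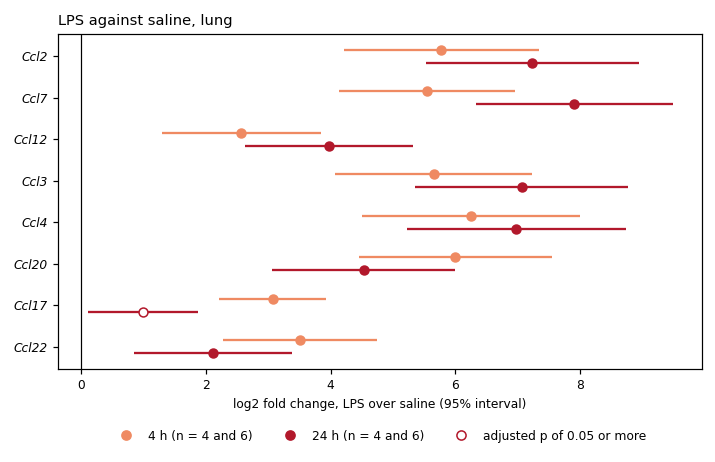
Log2 fold change of each chemokine in LPS lungs over saline lungs at 4 h and 24 h; points are estimates, bars are 95% intervals, and the open point did not pass the test. Ccl17 at 24 h is the only open point.

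The difference between the times was tested directly, as the LPS effect at 24 h minus that at 4 h. In edgeR 0 of 8 members passed, 2 had an unadjusted p under 0.05, and DESeq2 called 1, where 0.581% of all genes were called. Over all 14458 genes, 1209 had an unadjusted p under 0.05. The estimate for Ccl17 was -2.08 ± 0.63 (adjusted p = 0.121, with 0.0416 in DESeq2 and 0.0195 without 4 h saline replicate 4), and that for Ccl7 was 2.35 ± 0.97 (adjusted p = 0.407). The other estimates were 1.47 for Ccl2, 1.41 for Ccl12, 1.41 for Ccl3, 0.73 for Ccl4, -1.47 for Ccl20 and -1.40 for Ccl22, and each of their 95% intervals includes 0. On lungs of 1 plate per time (plate 1 at 4 h, plate 2 at 24 h) 8 members rose at 4 h and 7 at 24 h, so the LPS counts were the same within plates.

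Of the other CC chemokines, 9 of 12 symbols in the table were tested. At 4 h 2 rose after LPS, Ccl5 by 2.87 ± 0.68 and Ccl9 by 2.52 ± 0.85 on the log2 scale, and 0 fell. At 24 h Ccl5 rose by 3.69 ± 0.70, while Ccl21a, a lymphoid tissue chemokine with near-identical copies whose counts are therefore uncertain, changed by -1.01 ± 0.30. Of 14 CC receptors, 10 were tested. At 4 h 2 of them rose, Ackr1, an endothelial decoy receptor that binds many chemokines (5.15 ± 0.69), and Ccr1 (2.86 ± 0.72). At 24 h 5 rose and 1 fell. Among those that rose were Ccr1 (3.86 ± 0.78), Ccr2 (2.05 ± 0.43) and Ackr1 (2.99 ± 0.66), and the 1 that fell, named for that after its value was seen, was Ackr4, a scavenging receptor (-2.94 ± 0.84). Ccr2, the receptor of Ccl2, Ccl7 and Ccl12, averaged 231 ± 49.6 CPM after LPS (SD, n = 4) and 55.5 ± 21.1 CPM after saline (SD, n = 6) at 24 h.

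Cell type markers moved in the same LPS lungs. All 8 neutrophil markers rose at both times, and their summed CPM was 552 to 1955 after LPS and 116.6 to 290 after saline at 4 h, and 1238 to 1894 after LPS and 84.3 to 172 after saline at 24 h, with Mmp8 at 0 counts in 5 of 6 saline lungs at each time. Of 7 tested monocyte markers 4 rose at 4 h and 5 at 24 h, among them Ly6c2 (1.94 ± 0.47 at 4 h, 4.41 ± 0.49 at 24 h), and their summed CPM was 1275 to 4515 after LPS and 567 to 3600 after saline at 4 h, and 2139 to 3373 after LPS and 730 to 1973 after saline at 24 h. Ms4a4c, the monocyte marker that was not tested, was at 0 counts in 5 of 6 saline lungs at 24 h. Of 8 dendritic cell markers 2 rose at 4 h and 2 rose and 1 fell at 24 h, and of 5 regulatory T cell markers 0 passed at 4 h and 3 rose at 24 h (Il2ra, Ctla4 and Foxp3). Of 7 alveolar macrophage markers 0 passed at 4 h, and at 24 h Marco rose and Fabp1 fell, while of 3 tested type 17 lymphocyte markers 0 passed at either time. At 24 h 3 of 7 heart muscle markers and 1 of 7 lung epithelium markers also fell, and the summed CPM of the epithelium list was 15925 to 30218 after LPS and 28657 to 52560 after saline. The part of these shifts in the chemokine changes was not tested.

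PeatFlame had the highest mean of the 10 smokes at 4 h for Ccl2, Ccl7, Ccl12, Ccl3, Ccl4 and Ccl17, and at 24 h for Ccl2, Ccl7, Ccl17 and Ccl22. At 4 h 0 of 8 members passed in edgeR, 5 had an unadjusted p under 0.05, and DESeq2 called 1, where 0.297% of all genes were called. Over all 14458 genes, 745 had an unadjusted p under 0.05 in that comparison. At 24 h 1 of 8 passed, Ccl7, where 0.0692% of all genes were called higher, the same share as in either direction, and DESeq2 called 2. The median log2 change of the 8 was 1.33 at 4 h and 1.45 at 24 h, with -0.04 and -0.05 over all genes.

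Ccl7 had the clearest separation. At 4 h the 6 PeatFlame lungs had 9.35, 12.2 and 21.2 CPM (lowest, median and highest), against 1.15, 2.94 and 6.36 CPM in the 6 saline lungs, so all 6 PeatFlame lungs lay above every saline lung, as they did for 0.892% of all genes. The log2 change was 2.10 ± 0.61 and did not pass (adjusted p = 0.167), though it did when the 4 h lungs were fitted alone (0.0491) and when the count of detected genes entered as a covariate (0.04). At 24 h the 6 lungs had 3.41, 3.62, 4.48, 9.55, 18.8 and 20.1 CPM after PeatFlame, against 0.25, 0.926 and 2.65 CPM (lowest, median and highest) after saline. All 6 again lay above every saline lung in CPM, as was so for 0.111% of all genes. For replicates 1 and 2 that rests on the scaling by trimmed means. PeatFlame replicates 1, 2 and 3 held 18 Ccl7 counts each, as did saline replicate 1. The unscaled library totals were 6553624 and 6617320 counts for PeatFlame replicates 1 and 2, and 6201398 for that saline lung. Per unscaled total, PeatFlame replicates 1 and 2 therefore lay below saline replicate 1. Ccl7 rose by 3.12 ± 0.67 on the log2 scale (adjusted p = 0.0193). On plate 2 alone the change was 3.68 (adjusted p = 0.0153). The call was lost without PeatFlame replicate 5 (adjusted p = 0.0659) or 6 (0.0629), without saline replicate 2, 3, 4 or 5 (0.0734, 0.0701, 0.0979 and 0.115), and when each time was fitted alone (0.127), with log2 changes of 2.81 to 3.12 in these fits.

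Ccl2 followed the same animals. At 24 h it stood at 1.33, 2.41, 0, 11.8, 24.7 and 28.2 CPM in PeatFlame replicates 1 to 6, against 0, 1.26 and 2.36 CPM (lowest, median and highest) after saline, so 4 of 6 lay above every saline lung and 2 did not. Of the 4, replicate 2 held 12 counts, fewer than the 16 of saline replicate 1, so its place also rests on the scaling. The log2 change was 3.14 ± 0.74 with an adjusted p of 0.0568, and the test was passed in DESeq2 (0.0102), with detected genes as a covariate (0.00906), without the 6 gene-poor libraries (0.00818) and without PeatFlame replicate 1, 2 or 3 (0.0223, 0.0369 and 0.0193), and not on plate 2 alone (3.58, adjusted p = 0.0914). Ccl3 in the same order had 0.948, 0, 0, 7.64, 14.1 and 13.1 CPM, against 0, 1.23 and 2.86 CPM after saline (2.25 ± 0.73, adjusted p = 0.495). Replicates 4, 5 and 6 were high and replicates 1, 2 and 3 low for both genes and for Ccl7 and Ccl12. The 3 high libraries had 15048, 14859 and 15421 detected genes and the 3 low ones 13746, 13159 and 12145, and the part of this in the difference between animals was not tested. At 4 h Ccl2 had 7.42, 17 and 39.4 CPM after PeatFlame, against 0.956, 5.15 and 14.1 CPM after saline (1.63 ± 0.66, adjusted p = 0.633), and Ccl3 had 4.81, 10.5 and 38.6 CPM, against 1.09, 4.35 and 5.44 CPM (1.86 ± 0.67, adjusted p = 0.456).

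**Figure D3:**
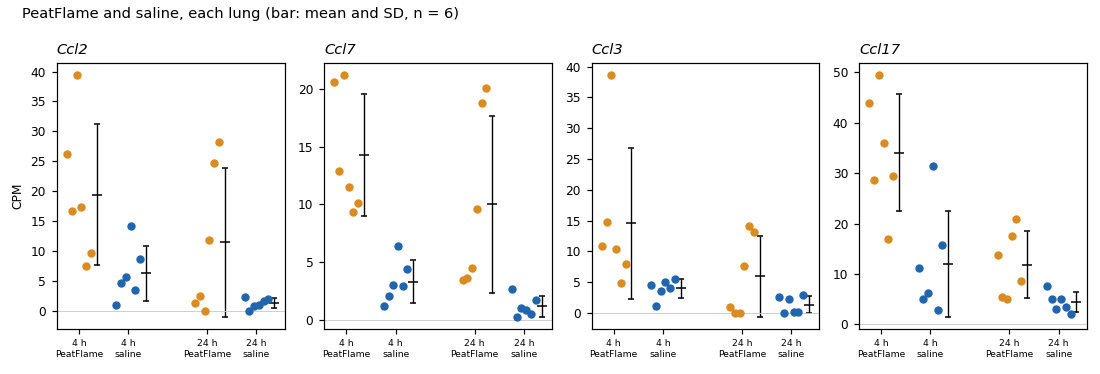
CPM of Ccl2, Ccl7, Ccl3 and Ccl17 in each PeatFlame and saline lung at 4 h and 24 h; points are animals in replicate order from left to right, and bars are the mean and SD of 6. At 24 h PeatFlame replicates 4 to 6 carry most of the Ccl2, Ccl7 and Ccl3 signal.

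Ccl17, the Ccr4 ligand, was at 16.9, 32.7 and 49.4 CPM (lowest, median and highest) after PeatFlame at 4 h, against 2.91, 8.67 and 31.3 CPM after saline. The groups overlap through 1 high saline lung, replicate 4, and 3 of 6 PeatFlame lungs lay above every saline lung. The log2 change of 1.5 ± 0.39 missed the threshold (adjusted p = 0.0683) and passed it in DESeq2 (0.0201), with the covariate (0.0189), without the 6 gene-poor libraries (0.0309), without PeatFlame replicate 5 (0.0311) and without that saline lung (2.06, adjusted p = 0.00229). At 24 h Ccl17 had 4.98, 11.2 and 20.9 CPM after PeatFlame, against 2.11, 4.22 and 7.66 CPM after saline (1.44 ± 0.41, adjusted p = 0.262). The remaining members had smaller differences at 4 h: 1.17 ± 0.59 for Ccl12, 1.06 ± 0.80 for Ccl4, 0.69 ± 0.63 for Ccl20 and 0.13 ± 0.56 for Ccl22. At 24 h they were 0.93 ± 0.61 for Ccl12, 1.46 ± 0.76 for Ccl4, -0.58 ± 0.65 for Ccl20 and 1.06 ± 0.60 for Ccl22, and none of these passed in edgeR. Ccl20, so high after LPS, thus stood at 6.59 ± 4.42 CPM after PeatFlame at 24 h and at 10.3 ± 7.67 CPM after saline (SD, n = 6 each).

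The PeatFlame effect at 24 h minus that at 4 h was called for 0 of 8 members (edgeR, with 0 at an unadjusted p under 0.05 and 0 in DESeq2), where 0.0622% of all genes were called. An unadjusted p under 0.05 was found for 697 of all 14458 genes. Of the other CC chemokines, CC receptors and the neutrophil, monocyte, alveolar macrophage, dendritic cell, regulatory T cell and type 17 lymphocyte markers, 0 passed after PeatFlame at either time in edgeR. The summed CPM of the neutrophil markers was 148 to 474 after PeatFlame and 116.6 to 290 after saline at 4 h, and 101.3 to 185 after PeatFlame and 84.3 to 172 after saline at 24 h. That of the monocyte markers was 734 to 2007 after PeatFlame and 567 to 3600 after saline at 4 h, and 497 to 1647 after PeatFlame and 730 to 1973 after saline at 24 h. Mmp8 was at 0 counts in 4 of 6 PeatFlame and 5 of 6 saline lungs at 24 h, and Ms4a4c in 5 of 6 of each. The neutrophil markers had a median log2 change of 0.8 at 4 h and 0.83 at 24 h, and their part in the Ccl7 change was not tested.

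LPS was set against PeatFlame directly at 4 h, and 7 of 8 members were higher after LPS, where 3.22% of all genes were called higher and 4.60% in either direction. The log2 differences were 5.31 ± 0.76 for Ccl20, 5.19 ± 0.82 for Ccl4, 4.15 ± 0.74 for Ccl2, 3.79 ± 0.73 for Ccl3, 3.45 ± 0.65 for Ccl7, 3.38 ± 0.62 for Ccl22 and 1.57 ± 0.42 for Ccl17 (adjusted p = 0.0102 for Ccl17). Ccl12 did not pass (1.40 ± 0.63, adjusted p = 0.264), and did with detected genes as a covariate (0.000952). The Ccl17 call was lost without LPS replicate 3 (adjusted p = 0.13) and when its probes were tested alone (0.3).

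The other 9 smokes were each set against saline at both times, and 0 of 8 members passed in any of these 18 comparisons in edgeR. Of 72 member tests at 4 h, 3 had an unadjusted p under 0.05, and DESeq2 called 0. At 24 h 5 of 72 had an unadjusted p under 0.05, and DESeq2 called 1. Of all 14458 genes, 259 (PeatSmolder) to 1742 (PineNeedlesFlame) had an unadjusted p under 0.05 at 4 h. At 24 h it was 239 (PeatSmolder) to 2977 (PineNeedlesFlame). The share of all genes called in either direction at 4 h was 0.0899% for EucalyptusFlame, 0.0277% for PineNeedlesFlame, 0.0207% for PineNeedlesSmolder, 0.0138% for RedOakFlame, 0.00692% for PineFlame and 0% for the other 4. At 24 h it was 1.75% for RedOakFlame, 0.0207% for PineNeedlesSmolder, 0.00692% for each of EucalyptusFlame, PeatSmolder, PineNeedlesFlame and RedOakSmolder, and 0% for the remaining 3. Apart from the 1.75% for RedOakFlame at 24 h, these backgrounds leave little room for any call. In none of the comparisons does a miss show that levels were equal.

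RedOakFlame at 4 h had the next highest means of the Ccr2 ligands after PeatFlame. Its lungs had 6.32 to 24 CPM of Ccl7, mean 12.9 ± 7.68, against 1.15 to 6.36 CPM, mean 3.29 ± 1.84, in saline lungs (SD, n = 6 each), and the log2 change was 1.95 ± 0.61 (adjusted p = 0.501). Its Ccl2 was 4.85 to 29.7 CPM, against 0.956 to 14.1 CPM after saline (1.22 ± 0.65, adjusted p = 0.989). In both genes replicates 2 and 5 were the highest of that group. PineNeedlesFlame at 24 h had 2.01 to 13.9 CPM of Ccl2, against 0 to 2.36 CPM after saline (1.96 ± 0.73, adjusted p = 0.168). Its Ccl7 was 1.72 to 12.4 CPM, against 0.25 to 2.65 CPM after saline (1.89 ± 0.67, adjusted p = 0.167), with replicate 3 the highest for both. In that PineNeedlesFlame comparison 3 members had an unadjusted p under 0.05 (Ccl2, Ccl3 and Ccl7). So did 2977 of all 14458 genes, so these members are not set apart by it. EucalyptusSmolder at 4 h had a Ccl7 change of 1.43 ± 0.61 (adjusted p = 0.989).

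EucalyptusFlame at 24 h stood out for Ccl3 and Ccl4 through 1 lung. Ccl3 had 68.1, 2.82, 7.97, 1.62, 0 and 2.36 CPM in its 6 lungs, against 0, 1.23 and 2.86 CPM (lowest, median and highest) after saline. Ccl4 had 25, 0.939, 5.12, 1.08, 0 and 0 CPM, against 0.448, 1.05 and 2.5 CPM after saline. Replicate 1 was the highest for both, and its Ccl2 and Ccl7 stood at 3.11 and 1.4 CPM. It was also the only lung of this group on plate 1, and the part of the plate in its values was not tested. The log2 change of Ccl3 was 3.01 ± 0.76 (adjusted p = 0.223, with 0.0496 in DESeq2, 0.00303 with the covariate and 0.0358 without the 6 gene-poor libraries) and 1.09 (adjusted p = 0.999) without that lung. For Ccl4 it was 1.83 ± 0.80 (adjusted p = 0.792), and 0.36 (0.999) without that lung.

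**Figure D4:**
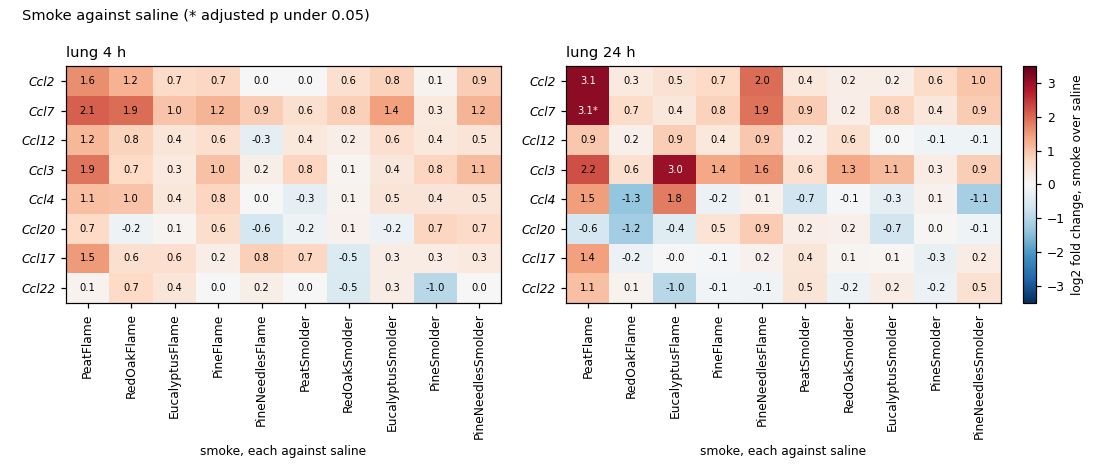
Log2 fold change of each chemokine (rows) after each of the 10 smokes over saline (columns), at 4 h on the left and 24 h on the right, with the value in each cell; an asterisk marks an adjusted p under 0.05. The 1 asterisk is Ccl7 after PeatFlame at 24 h.

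The order of the group means differed among the members. LPS groups held the top of each order, the 4 h group for Ccl2, Ccl3, Ccl20, Ccl17 and Ccl22 and the 24 h group for Ccl7, Ccl12 and Ccl4. Of the 23 neighbouring pairs in each order, the ranges of 21 to 23 overlapped, so the places of most neighbours are not firm. Sorting by mean sets the nearest groups side by side, so this overlap does not test whether groups differ. At 4 h the smoke group means of Ccl2 ran between 6.29 CPM (PineNeedlesFlame) and 19.4 CPM (PeatFlame), with 6.25 CPM after saline, and at 24 h between 1.38 CPM (EucalyptusSmolder) and 11.4 CPM (PeatFlame), with 1.27 CPM after saline. Those of Ccl7 ran between 4.22 CPM (PineSmolder) and 14.3 CPM (PeatFlame) at 4 h, with 3.29 CPM after saline, and between 1.38 CPM (RedOakSmolder) and 9.99 CPM (PeatFlame) at 24 h, with 1.14 CPM after saline. So each smoke mean of Ccl2 and Ccl7 lay above the saline mean of its time, most of them with overlapping ranges. At each time all 10 smoke means were set against the same 6 saline lungs, so they are not 10 independent results. The share of all genes with this pattern is not given here. Ccl12 ran between 5.65 and 16 CPM at 4 h, with 7.1 CPM after saline, and between 2.55 and 5.88 CPM at 24 h, with 2.95 CPM after saline. Ccl3 ran between 4.2 and 14.5 CPM at 4 h, with 3.98 CPM after saline, and between 1.51 and 13.8 CPM at 24 h, with 1.35 CPM after saline. Each smoke mean of Ccl3 thus also lay above the saline mean of its time, with overlapping ranges and the same shared saline lungs. Ccl4 ran between 0.575 CPM (PeatSmolder) and 1.56 CPM (PeatFlame) at 4 h, with 0.738 CPM after saline, and between 0.45 CPM (RedOakFlame) and 5.36 CPM (EucalyptusFlame) at 24 h, with 1.21 CPM after saline. Ccl20 ran between 11.5 CPM (PineNeedlesFlame) and 31.8 CPM (PineNeedlesSmolder) at 4 h, with 17.6 CPM after saline, and between 3.97 CPM (RedOakFlame) and 18.5 CPM (PineNeedlesFlame) at 24 h, with 10.3 CPM after saline. PeatFlame did not lead the smokes in Ccl20. Ccl17 ran between 8.7 CPM (RedOakSmolder) and 34 CPM (PeatFlame) at 4 h, with 12 CPM after saline, and between 3.52 CPM (RedOakFlame) and 11.9 CPM (PeatFlame) at 24 h, with 4.39 CPM after saline. Ccl22 ran between 2.12 CPM (PineSmolder) and 6.79 CPM (RedOakFlame) at 4 h, with 4.17 CPM after saline, and between 0.819 CPM (EucalyptusFlame) and 3.62 CPM (PeatFlame) at 24 h, with 1.72 CPM after saline.

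Whether the 10 smokes differed among themselves was tested with an F test over all of them. At 24 h 5 of 8 members passed, where 18.0% of all genes were called: Ccl7 (adjusted p = 0.000613), Ccl2 (0.000857), Ccl4 (0.00422), Ccl17 (0.00809) and Ccl3 (0.0135), and DESeq2 called 5. Ccl20, Ccl12 and Ccl22 did not pass (0.224, 0.656 and 0.323). The calls of Ccl3 and Ccl4 were lost without EucalyptusFlame replicate 1 (0.331 and 0.285), a lung chosen after its values were seen, which left 3 of 8, and that of Ccl17 without PeatFlame replicate 4 (0.0551) or 5 (0.106). EucalyptusFlame replicate 1 was the only lung of its group on plate 1. The Ccl3 call was also lost when its probes were tested alone (0.189). With each time fitted alone only Ccl7 passed (0.0491). At 4 h 0 of 8 passed in edgeR, 1 had an unadjusted p under 0.05 and DESeq2 called 1, where 0.609% of all genes were called, and Ccl17 was nearest (adjusted p = 0.0945). In that F test 943 of all 14458 genes had an unadjusted p under 0.05.

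Flaming against smoldering smoke, averaged over the 5 fuels, gave 0 of 8 members at either time in edgeR and in DESeq2, with 3 at an unadjusted p under 0.05 at 4 h and 5 at 24 h. The share of all genes called was 2.39% at 4 h and 0.111% at 24 h. Of all 14458 genes, 2770 had an unadjusted p under 0.05 at 4 h and 907 at 24 h. At 4 h Ccl17 differed by 0.51 ± 0.18 on the log2 scale (adjusted p = 0.0945), and it passed with detected genes as a covariate (0.028) and without the 6 gene-poor libraries (0.0383). The 30 flaming lungs had 5.56 to 49.4 CPM of Ccl17 at 4 h, mean 21.1 ± 12, against 5.93 to 31.5 CPM, mean 14.6 ± 6.33, in the 30 smoldering lungs (SD). At 24 h the differences were 0.92 ± 0.32 for Ccl3, 0.85 ± 0.33 for Ccl2, 0.80 ± 0.37 for Ccl4, 0.74 ± 0.31 for Ccl7 and 0.56 ± 0.28 for Ccl12, and adjusted p-values were 0.421 to 0.789. Ccl2 in the 30 flaming lungs at 24 h had 0, 2.44 and 28.2 CPM (lowest, median and highest), against 0, 1.31 and 8.16 CPM in the 30 smoldering lungs. Within fuels at 4 h, 0 of 8 members passed for any of the 5 fuels in edgeR or DESeq2, with 3 at an unadjusted p under 0.05 for peat, 2 for red oak and 0 for the others, where 0.0899% of all genes were called for peat, 0.0138% for eucalyptus and pine needles and 0.00692% for pine and red oak. An unadjusted p under 0.05 was found for 372 of all 14458 genes for peat and 839 for red oak. It was found for 320 for eucalyptus, 405 for pine and 3262 for pine needles. PeatFlame exceeded PeatSmolder by 1.61 ± 0.65 in Ccl2 and by 1.55 ± 0.59 in Ccl7 without passing (adjusted p = 1 for both). The mean of the 10 smokes against saline gave 0 of 8 at both times in edgeR and DESeq2, with 1 at an unadjusted p under 0.05 at each time, where 0% of all genes were called at 4 h and 0.00692% at 24 h. Its largest estimates were 1.15 ± 0.49 for Ccl7 at 4 h and 1.28 ± 0.60 for Ccl3 at 24 h. For this mean, 763 of all 14458 genes had an unadjusted p under 0.05 at 4 h and 514 at 24 h.

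Between the times, saline lungs at 24 h were lower than at 4 h in most members without passing. Ccl2 averaged 1.27 ± 0.868 CPM at 24 h and 6.25 ± 4.63 CPM at 4 h in saline lungs (SD, n = 6 each), a log2 difference of -2.12 ± 0.79 (adjusted p = 0.469). Ccl17 differed by -1.43 ± 0.44 (0.267) and Ccl12 by -1.32 ± 0.66 (0.69), while Ccl4 had 1.30 ± 0.93. In edgeR 0 of 8 passed, 3 had an unadjusted p under 0.05 and DESeq2 called 0, where 0% of all genes were called, and with detected genes as a covariate Ccl2, Ccl12 and Ccl17 passed (0.048, 0.028 and 0.0347). Without the covariate, 1031 of all 14458 genes had an unadjusted p under 0.05. Time and plate can barely be told apart in this comparison, since the 4 h saline lungs were all on plate 1 and 5 of the 6 at 24 h on plate 2. The mean smoke effect at 24 h minus that at 4 h gave 0 of 8 in edgeR, with 0 at an unadjusted p under 0.05 and 0 in DESeq2, where 0% of all genes were called. For that effect 632 of all 14458 genes had an unadjusted p under 0.05.

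In heart, 3 of the 8 members passed the filter on low counts and were tested: Ccl2, Ccl7 and Ccl12, the Ccr2 ligands. Ccl3, Ccl4, Ccl17, Ccl20 and Ccl22 had at most 12 counts in any heart, and Ccl20 at most 2. Against saline, 0 of 3 passed for any of the 4 smokes in edgeR or DESeq2, where 0.0447% of all genes were called for PeatFlame, 4.29% for PeatSmolder, 12% for RedOakFlame and 0% for RedOakSmolder, and 1 of the 12 tests had an unadjusted p under 0.05. That was Ccl7 after PeatFlame, at 2.13, 3.04 and 4.92 CPM (lowest, median and highest), against 2.8, 5.81 and 12.8 CPM after saline, a log2 change of -1.15 ± 0.36 (adjusted p = 0.296). In this comparison 1303 of all 11179 genes tested in heart had an unadjusted p under 0.05. The lung change of Ccl7 for the same smoke and time was 3.12, and the difference between the tissues was not tested. Ccl2 averaged 7.11 ± 3.18 CPM after PeatFlame and 9.19 ± 3.4 CPM after saline (SD, n = 6 each). Its changes lay between -0.37 and 0.28 over the 4 smokes, with 95% intervals no wider than -1.03 to 0.92. Ccl12 was 5.33 ± 2.99 CPM after PeatFlame, 13 ± 9.55 CPM after RedOakSmolder and 9.05 ± 4.85 CPM after saline. The RedOakSmolder mean includes 1 heart at 31 CPM.

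**Figure D5:**
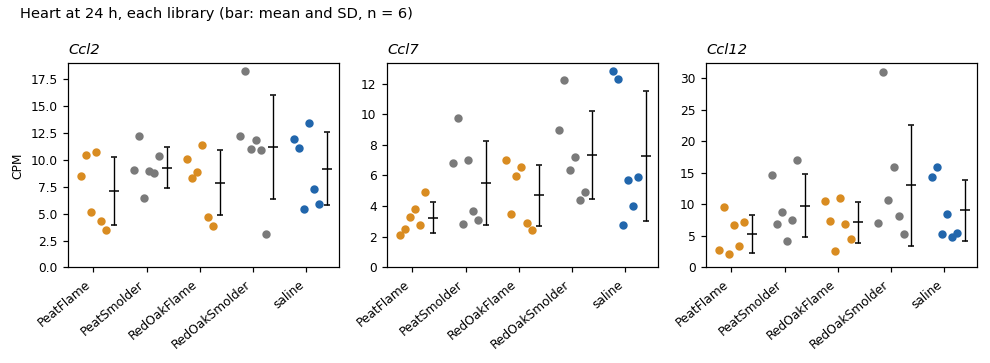
CPM of Ccl2, Ccl7 and Ccl12 in each heart at 24 h, by group; points are animals and bars are the mean and SD of 6. The smoke groups overlap the saline hearts in all 3 genes.

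Over the saline and smoke lungs, 60 smoke and 6 saline of each time, the levels of the members were set against each other and against 13240 other genes, as Pearson's r of log2(CPM + 1), given as a description. Libraries share plates, depth and time, so an r is no measure of shared control. Ccl2 and Ccl7 were the most alike pair (r = 0.85, and 0.73 after subtracting group means), followed by Ccl2 and Ccl12 (0.78 and 0.67), Ccl12 and Ccl3 (0.73 and 0.64) and Ccl2 and Ccl3 (0.72 and 0.66). Ccl4 was most like Ccl3 among the members (0.48 and 0.61), and Ccl22 most like Ccl17 (0.63 and 0.36). Ccl4 and Ccl22 had r = 0 and Ccl4 and Ccl20 r = 0.08. Among all genes, the nearest to Ccl2 after Ccl7 were the neutrophil chemokine Cxcl1 (0.81) and the anion exchanger Slc26a4 (0.79), and those of Ccl7 were Ccl2, Cxcl1 (0.75) and Slc26a4 (0.74). Ccl12 was nearest to Lrg1 (0.87), Lcn2 (0.87), a siderophore-binding protein, and Casp4 (0.83). Ccl3 was nearest to the cytokine gene Il1b (0.77), Lcn2 (0.77) and the interleukin 1 antagonist Il1rn (0.76), and Ccl4 to Slfn4, Gm5483 and Slfn3 (0.55, 0.54 and 0.53). Ccl20 was nearest to Cxcl1 (0.66), Sod2 (0.65) and Slc5a1 (0.65), Ccl17 to Sbno2 (0.76), Cxcl1 (0.75) and Slc26a4 (0.74), and Ccl22 to Ccl17 (0.63), Sbno2 (0.61) and Rrp12 (0.59).

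The 2 probes of a symbol gave the same picture for Ccl2, Ccl3 and Ccl17 where the groups were far apart. For Ccl2 the first probe averaged 298 ± 88.9 CPM after LPS (SD, n = 4) and 5.57 ± 3.9 CPM after saline (SD, n = 6) at 4 h, and the second 46.1 ± 17.4 CPM after LPS and 0.682 ± 0.781 CPM after saline. For Ccl17 they averaged 74.7 ± 30.3 and 26.6 ± 11.9 CPM after LPS, and 9.28 ± 7.87 and 2.76 ± 2.72 CPM after saline. For Ccl22, 1 of the 2 probes had 0 counts in the LPS, PeatFlame and saline lungs, so its levels come from the other probe.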

How the data were processed

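RNA from mouse lungs and hearts was measured with a targeted probe assay, per the labels' protocols, which name both the TempO-Seq platform and a QuantSeq 3' kit. The authors deposited whole-number counts per probe; Bowtie and DESeq2 are named in the submitters' processing notes without a role, and the genome build is not given in the sources used here. Probes were summed per symbol, every table column was mapped to a sample, and genes were tested with edgeR 4.0.16 (R 4.3.3) by the quasi-likelihood F test after TMM scaling and its filter on low counts, in 1 fit of 140 lungs with group and plate terms (14458 genes) and 1 fit of 30 hearts (11179 genes). Benjamini-Hochberg adjustment covered all genes of a fit, with a threshold of 0.05, and SE came from the F statistic. DESeq2 1.42.0 was an alternative. The scripts were tested on simulated data. No 2 libraries of a group were duplicates (at least 13635 genes differed in each of 417 pairs). Floors of 3 counts cover counting error only. Genes outside the 8 were named where they passed the test in a listed gene group or were the 3 most alike to a member. The members and lists were chosen with earlier results of these data known. 1 result is not reported here.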

Additional observations from a re-analysis of the deposited data

Results flagged for a closer look

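Dixon's criterion was run on the CPM of a gene within a group, here called a set. For normally distributed values it marks about 1 of 20 sets by chance, counting either side. These CPM were used without logs, some come from low counts, and they need not be normally distributed. The number of marked sets therefore cannot be weighed against that rate. In lung groups of 4 to 6 libraries, 24 of 192 sets had a library far from the others, each time the highest. In hearts 6 of 40 sets did, for Ccl17, Ccl20 and Ccl22, where the highest library held 1 or 2 counts, and these are not listed. For Ccl2 these were PineNeedlesFlame replicate 3 at 24 h (13.9 CPM), LPS replicate 2 at 24 h (355 CPM), PineFlame replicate 6 at 4 h (25.3 CPM) and EucalyptusFlame replicate 2 at 4 h (22 CPM). For Ccl7 they were PineNeedlesFlame replicate 3 at 24 h (12.4 CPM) and PineFlame replicate 6 at 4 h (17.7 CPM). For Ccl12 they were PineNeedlesFlame replicate 2 at 24 h (9.21 CPM), PineFlame replicate 6 at 4 h (28.2 CPM) and PeatSmolder replicate 6 at 24 h (7.01 CPM). For Ccl3 they were EucalyptusFlame replicate 1 at 24 h (68.1 CPM), LPS replicate 2 at 24 h (303 CPM), PeatFlame replicate 3 at 4 h (38.6 CPM) and PineFlame replicate 6 at 4 h (22.4 CPM). For Ccl4 they were EucalyptusFlame replicate 1 at 24 h (25 CPM), RedOakFlame replicate 1 at 24 h (1.76 CPM) and PeatFlame replicate 3 at 4 h (4.83 CPM). PineFlame replicate 6 at 4 h thus stood apart in Ccl2, Ccl7, Ccl12 and Ccl3.

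For Ccl20 they were RedOakSmolder replicate 4 (63.7 CPM), PineSmolder replicate 2 (82.2 CPM), EucalyptusFlame replicate 2 (50.8 CPM) and saline replicate 6 (40.9 CPM) at 4 h, and PineFlame replicate 5 (37.4 CPM) and PineSmolder replicate 5 (33 CPM) at 24 h. For Ccl22 they were PeatSmolder replicate 1 (9.44 CPM) and EucalyptusSmolder replicate 6 (11.1 CPM) at 4 h. The 10 smokes differed among themselves at 24 h in Ccl7 (adjusted p = 0.000613), Ccl2 (0.000857), Ccl4 (0.00422), Ccl17 (0.00809) and Ccl3 (0.0135) by the F test of edgeR.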

How the results depend on the processing

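Within a tissue no paired analysis was possible, because the replicate numbers follow accession order and the groups compared held different animals by their titles. Lungs and hearts at 24 h could be paired by animal number, but no comparison between them was tested. No log2 change of a member changed sign and its call under any alternative run. The number of members called after LPS at 4 h was 8 in every fit, and leaving out 1 library gave 6 to 7 after LPS at 24 h and 6 to 7 for LPS against PeatFlame. After PeatFlame at 24 h the count of 1 became 2 in DESeq2, with detected genes as a covariate and without the 6 gene-poor libraries, 0 with each time fitted alone, and 0 to 2 when 1 library was left out. After PeatFlame at 4 h the count of 0 became 1 in DESeq2, with each time fitted alone and without the 6 gene-poor libraries, 2 with the covariate, and 0 to 1 when 1 library was left out. After EucalyptusFlame at 24 h 0 became 1 in DESeq2, with the covariate and without the 6 gene-poor libraries. The LPS effect at 24 h minus 4 h gave 1 in DESeq2 and 0 to 1 when 1 library was left out. Any difference among smokes at 24 h fell to 1 member with each time alone and gave 3 to 5 when 1 library was left out, where the 3 was chosen after seeing the data. At 4 h it became 1 in DESeq2, with the covariate and without the 6 gene-poor libraries. Flaming against smoldering at 4 h became 1 with the covariate and without those libraries, and saline at 24 h against 4 h became 3 with the covariate. The cause of these shifts was not tested. Of the counts of members called under alternatives, 661 stayed within 1.5 times and 32 moved. Ccl4 had 0 to 10 counts in the saline lungs, where depth limits the comparison. At 24 h depth limits it likewise for Ccl2 (0 to 16 counts in the saline lungs), Ccl7 (1 to 18), Ccl3 (0 to 19) and Ccl22 (1 to 33).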
